A study of Mus musculus with 12 samples.

Results

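Kupffer cells and neutrophils are the main phagocytes that whole-liver RNA carries, and 9 of their marker genes were followed here in the livers of fed wild-type and glucagon-deficient mice. The markers were taken by symbol from a table of 24475 genes: 4 mark Kupffer cells (Clec4f, Vsig4, Cd5l and Marco) and 5 mark neutrophils or their activation (S100a8, S100a9, Csf3r, Cxcr2 and Il1b). All 9 were found and all 9 passed the filter on low values (a mean of at least 0.5 RPKM, which are reads scaled by gene length and library depth). The study set 6 libraries of wild-type (WT) liver against 6 of mice lacking Gcg (Gcg KO), the gene of the glucagon precursor. Each library was polyadenylated RNA of a whole, flash-frozen liver of a fed mouse. The labels give no strain, sex, age or batch, and do not say that each library came from its own animal, so the tests gauge only how much these libraries vary, which may be technical. Libraries are named by the number in their title, WT 1 to 6 and Gcg KO 7 to 12.

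Kupffer cells are the resident macrophages of the liver sinusoids; they clear bacteria, complement-coated particles and aged red cells from portal blood, and in mice Clec4f, a C-type lectin, is expressed almost only by them. Neutrophils are short-lived granulocytes made in the bone marrow. They pass through liver sinusoids with the blood and enter the tissue when chemokines call their receptor Cxcr2, and granulocyte colony-stimulating factor acts on them through Csf3r. Mature neutrophils hold large amounts of S100a8 and S100a9, calcium-binding proteins that pair to form calprotectin, while the enzymes of the primary granules (Mpo, Elane, Ctsg) are transcribed in marrow precursors. Il1b encodes the cytokine interleukin 1 beta, which neutrophils, monocytes and macrophages all make. In bulk RNA, fewer cells of a type and less RNA per cell cannot be told apart.

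The promoters of 4 markers are shown because they stand for the patterns described here: S100a8 and S100a9, which had the widest range over libraries, Il1b, a neutrophil marker with a narrower range, and Clec4f, the Kupffer marker of highest level. Each runs 5′ to 3′ on the gene's strand from 250 bases before to 50 bases after the RefSeq transcript start, in build GRCm38.p6. Capitals mark matches on either strand to TATAAA (the core element that many tissue-specific promoters hold), to TTNCNNAA (a C/EBP-like motif) or to AGGAAG (a PU.1-like ETS motif), and no matches overlapped in these 4. The regions are chr3:90668821-90669120 (plus strand), chr3:90695672-90695971 (minus strand), chr2:129371090-129371389 (minus strand) and chr6:83656067-83656366 (minus strand).
S100a8: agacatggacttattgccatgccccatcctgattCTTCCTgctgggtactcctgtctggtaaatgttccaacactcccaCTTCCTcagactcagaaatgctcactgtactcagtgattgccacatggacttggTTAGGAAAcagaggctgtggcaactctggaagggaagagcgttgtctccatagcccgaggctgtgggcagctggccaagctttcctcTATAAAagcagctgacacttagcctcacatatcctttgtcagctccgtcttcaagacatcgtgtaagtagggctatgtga
S100a9: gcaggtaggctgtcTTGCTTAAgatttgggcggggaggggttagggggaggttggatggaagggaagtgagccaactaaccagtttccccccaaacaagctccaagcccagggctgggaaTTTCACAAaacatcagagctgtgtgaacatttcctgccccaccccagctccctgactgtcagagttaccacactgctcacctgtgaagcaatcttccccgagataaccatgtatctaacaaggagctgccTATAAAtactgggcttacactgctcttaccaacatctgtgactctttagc
Il1b: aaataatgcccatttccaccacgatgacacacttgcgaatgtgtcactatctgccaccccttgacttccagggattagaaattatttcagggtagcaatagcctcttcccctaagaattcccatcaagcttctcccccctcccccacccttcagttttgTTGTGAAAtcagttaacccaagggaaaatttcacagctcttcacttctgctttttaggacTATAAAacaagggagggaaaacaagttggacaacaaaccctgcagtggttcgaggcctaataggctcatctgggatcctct
Clec4f: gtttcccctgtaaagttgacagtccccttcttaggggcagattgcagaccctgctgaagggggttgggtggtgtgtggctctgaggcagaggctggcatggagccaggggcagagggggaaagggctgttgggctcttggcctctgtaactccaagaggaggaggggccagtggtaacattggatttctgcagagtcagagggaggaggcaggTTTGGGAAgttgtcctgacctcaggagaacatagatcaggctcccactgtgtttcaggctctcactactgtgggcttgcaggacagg
TATAAA was found in 3 of the 5 neutrophil markers (S100a8, S100a9 and Il1b) and in 0 of the 4 Kupffer markers, against 13.6% of all 32851 RefSeq promoters of this length. It began 30 bases before the start in S100a8 and 31 bases before it in Il1b, and at the annotated first base in the S100a9 entry. A forward TATAAA that began 20 to 40 bases before the start occurred in 1.99% of promoters. The C/EBP-like motif was found in 3 of 5 neutrophil and 3 of 4 Kupffer promoters (40.7% of all promoters), and AGGAAG in 3 of 5 and 2 of 4 (35.4%). Csf3r held 4 matches to AGGAAG. Such matches describe letters only, and a window without a match says nothing about a factor.

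Depth, read from the smallest steps in the RPKM values, was about 10300000 to 15000000 reads per library. Pairs of libraries correlated at 0.970 to 0.989 within groups and 0.967 to 0.985 between groups (log2 values, across tested genes), and 0 pairs were identical. Gcg was listed at 0 in all 12 libraries, so the deleted gene checked no label in this tissue. Hepatocyte transcripts dominated every library, with Alb (albumin) between 22430 and 31960 RPKM. In 3 libraries, WT 6, Gcg KO 10 and Gcg KO 12, Igfbp1 (a secreted IGF-binding protein of hepatocytes) lay at 6.22, 14.2 and 9.35 RPKM, while it lay between 159 and 738 RPKM in the other 9 (5 WT and 4 Gcg KO). These 3 stood apart in many genes, so the genotype tests of the markers and the counts over gene lists are given with and without them. Igfbp1 is a measured value, not a label, so the libraries below and above 50 RPKM are not groups of the study and were not tested against each other.

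Kupffer cell markers were present in all 12 libraries, and 3 of the 4, all but Marco, varied less over the 12 than each neutrophil marker. Among the 9 libraries with Igfbp1 above 50 RPKM this did not hold for Clec4f. Their means over the libraries were 32.1 RPKM for Clec4f, 26.5 for Cd5l, 13.5 for Vsig4 and 1.58 for Marco. The neutrophil markers had means of 15.5 RPKM for S100a9, 11.3 for S100a8, 3.08 for Il1b, 1.11 for Csf3r and 0.946 for Cxcr2. The coefficient of variation over libraries was 15.2% for Cd5l, 17.2% for Vsig4 and 23.9% for Clec4f, but 54.0% for Marco. It was 69.7% for S100a8, 70.9% for S100a9, 47.2% for Csf3r, 40.9% for Il1b and 38.2% for Cxcr2. Among those 9 libraries it was 16.7% for Cd5l, 18.1% for Vsig4, 27.1% for Clec4f and 50.3% for Marco. For the neutrophil markers it was then 36.8% (S100a8), 36.5% (S100a9), 34.3% (Il1b), 26.3% (Cxcr2) and 23.9% (Csf3r). Some neighbours in the order of levels were not separated: Clec4f was above Cd5l in 10 of 12 libraries, S100a9 above Vsig4 in 8, Vsig4 above S100a8 in 7, and Csf3r above Cxcr2 in 7.

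**Figure D1:**
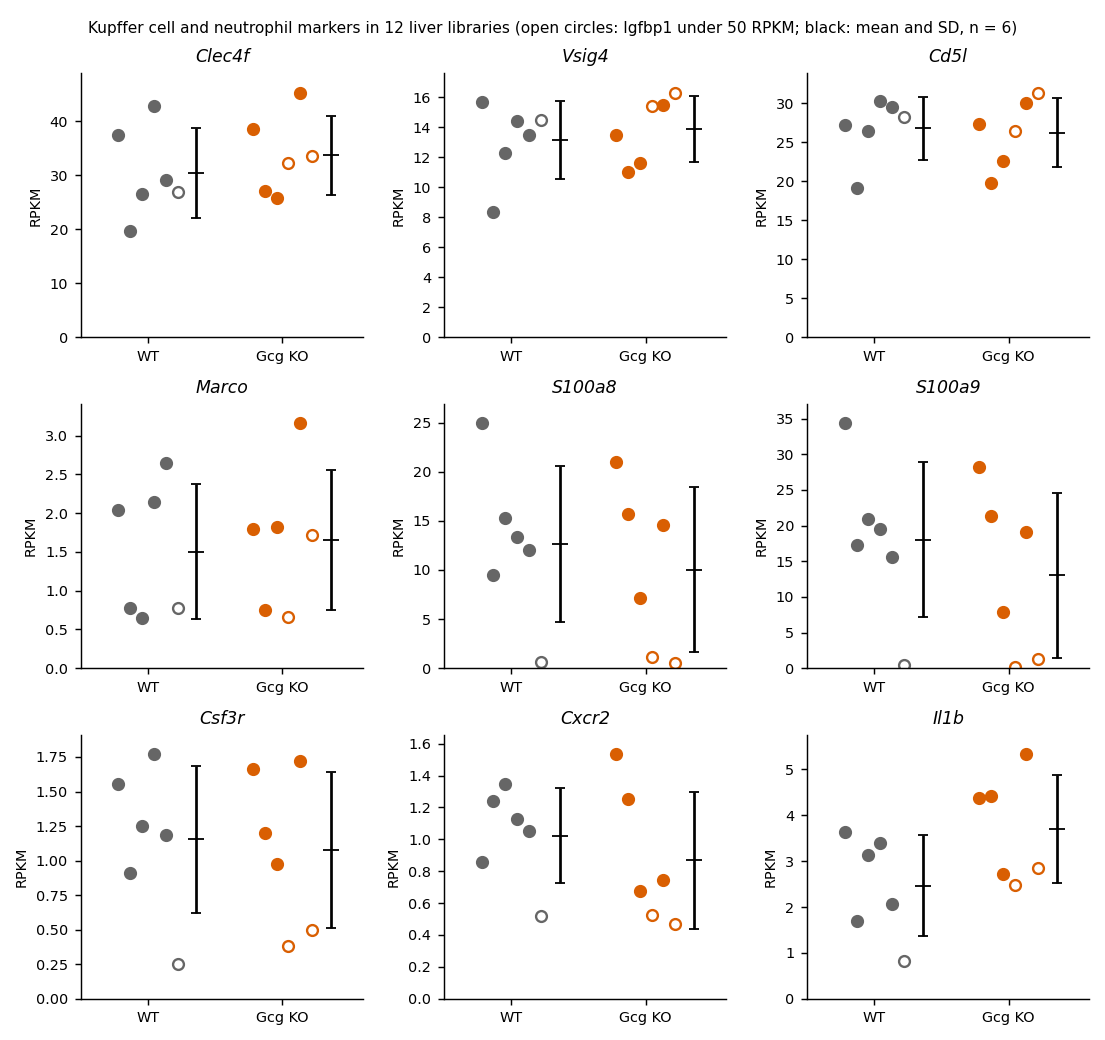
RPKM of the 9 markers in each WT (grey) and Gcg KO (orange) library, with the group mean and SD (n = 6) as a black bar and open circles for the 3 libraries with Igfbp1 under 50 RPKM. The groups overlap in all 9 panels, and the open circles are the lowest points for S100a8, S100a9, Csf3r and Cxcr2.

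Loss of Gcg moved none of the 9 markers past the threshold: 0 were called higher (1.95% of all tested genes were) and 0 lower (1.92%), also under each of the 22 alternatives. Unadjusted limma p-values under 0.05 numbered 0 with all 12 libraries, where 1783 of all 11347 tested genes had one. Without the 3 libraries low in Igfbp1 they numbered 1 (Il1b). The number over all genes was not counted in that fit, so this 1 has no background beside it. Among all 11347 tested genes 439 (3.87%) were called by limma at an adjusted p of 0.05, 221 higher and 218 lower. Without WT 3 there were 277, and without the 3 libraries low in Igfbp1 there were 299, of which 236 were among the 439. WT and Gcg KO values overlapped for all 9 markers, whereas 3.09% of tested genes had no overlap. With 9 genes, a count of 0 lies near that background. The intervals below give the sizes that the data leave possible for each marker, since a missed threshold does not show equal levels.

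Clec4f (Entrez 51811, chromosome 6, 83644542 to 83656116) ranged from 19.7 to 42.9 RPKM in WT, with a median of 28.0, and from 25.8 to 45.3 in Gcg KO, with a median of 32.9. The lowest library was WT 2 and the highest Gcg KO 11, and the groups overlapped over most of their range. Its log2 fold change, Gcg KO over WT on log2(RPKM + 0.5), was 0.16 ± 0.18 (SE, 95% interval -0.22 to 0.55, limma adjusted p = 0.749).

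Vsig4 (Entrez 278180, chromosome X, 96247201 to 96293438), the complement receptor CRIg with which Kupffer cells capture opsonised bacteria, lay between 8.37 and 15.7 RPKM among WT libraries (median 13.97) and between 11.03 and 16.3 among Gcg KO libraries (median 14.5). Again WT 2 was the lowest library. The difference was 0.09 ± 0.14 (SE, interval -0.22 to 0.40, limma adjusted p = 0.841).

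Cd5l (Entrez 11801, chromosome 3, 87357881 to 87371074), a secreted scavenger receptor protein of macrophages, lay between 19.1 and 30.3 RPKM in WT (median 27.7) and between 19.7 and 31.3 in Gcg KO (median 26.9). WT 2 stood below the other 5 WT libraries, which lay at 26.4 RPKM or more. Of the 9 markers it had the narrowest interval, -0.31 to 0.24 around a log2 fold change of -0.03 ± 0.13 (SE, limma adjusted p = 0.951).

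Marco (Entrez 17167, chromosome 1, 120474538 to 120505024), a class A scavenger receptor that binds bacteria, was the scarcest Kupffer marker. It ranged from 0.643 to 2.64 RPKM in WT (median 1.41) and from 0.663 to 3.16 in Gcg KO (median 1.75), which corresponds to 16 to 61 and 17 to 69 whole reads. Both groups held libraries near 0.7 and libraries near 2, and the low ones were WT 2, WT 3, WT 6, Gcg KO 8 and Gcg KO 10. The difference of 0.11 ± 0.32 (SE, interval -0.59 to 0.81, limma adjusted p = 0.928) was well inside that spread. Without WT 6, Gcg KO 10 and Gcg KO 12 the Kupffer markers gave 0.14 for Clec4f (interval -0.37 to 0.66), 0.02 for Vsig4 (-0.35 to 0.40), -0.09 for Cd5l (-0.43 to 0.25) and 0.16 for Marco (-0.65 to 0.97).

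S100a8 (Entrez 20201, chromosome 3, 90669071 to 90670034) ran from 0.651 to 24.9 RPKM in WT (median 12.7) and from 0.496 to 21.0 in Gcg KO (median 10.9). S100a9 (Entrez 20202, chromosome 3, 90692630 to 90695721), its partner, lies close by and on the other strand; it ran from 0.489 to 34.3 RPKM in WT (median 18.4) and from 0.140 to 28.2 in Gcg KO (median 13.5). In both genes the bottom of each group was held by WT 6, Gcg KO 10 and Gcg KO 12. The log2 fold changes were -0.61 ± 0.86 for S100a8 (SE, interval -2.47 to 1.26, limma adjusted p = 0.815) and -0.86 ± 1.02 for S100a9 (interval -3.06 to 1.35, adjusted p = 0.774). These were the widest intervals of the 9, and they narrowed without the 3 libraries: to -0.06, with an interval of -0.75 to 0.63, for S100a8, and to -0.24, with an interval of -0.97 to 0.49, for S100a9.

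Csf3r (Entrez 12986, chromosome 4, 126023441 to 126044975) encodes the receptor of granulocyte colony-stimulating factor. It spanned 0.251 to 1.77 RPKM among WT libraries (median 1.22) and 0.385 to 1.72 among Gcg KO libraries (median 1.09). The difference was -0.07 ± 0.29 (SE, interval -0.70 to 0.55, limma adjusted p = 0.951) and 0.04 without the 3 libraries (interval -0.33 to 0.42). Cxcr2 (Entrez 12765, chromosome 1, 74153994 to 74161246) encodes the receptor of the Cxcl1 and Cxcl2 chemokines. It spanned 0.522 to 1.35 RPKM among WT libraries (median 1.09) and 0.471 to 1.53 among Gcg KO libraries (median 0.712). Its log2 fold change was -0.19 ± 0.20 (SE, interval -0.61 to 0.24, limma adjusted p = 0.739). Without the 3 libraries it was -0.09 (interval -0.48 to 0.29). Csf3r rests on 10.2 to 78.5 and Cxcr2 on 14.8 to 61.9 estimated reads per library, so counting error adds to their spread.

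Il1b (Entrez 16176, chromosome 2, 129364569 to 129371164) gave the difference that lay closest to the threshold among the 9. It ranged from 0.834 to 3.63 RPKM in WT (median 2.60) and from 2.48 to 5.34 in Gcg KO (median 3.62), or 13 to 70 and 39 to 78 whole reads. The groups overlapped: 3 Gcg KO libraries were above every WT library, and 3 lay within the WT range. Its log2 fold change was 0.56 ± 0.27 (SE, interval -0.02 to 1.14), with an unadjusted p of 0.0563 and a limma adjusted p of 0.336. Without the 3 libraries it was 0.53 (interval 0.04 to 1.02, limma adjusted p = 0.277), but without WT 6 alone it was 0.35. Over all alternatives it lay between 0.35 and 0.68, with an adjusted p between 0.259 and 0.486.

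**Figure D2:**
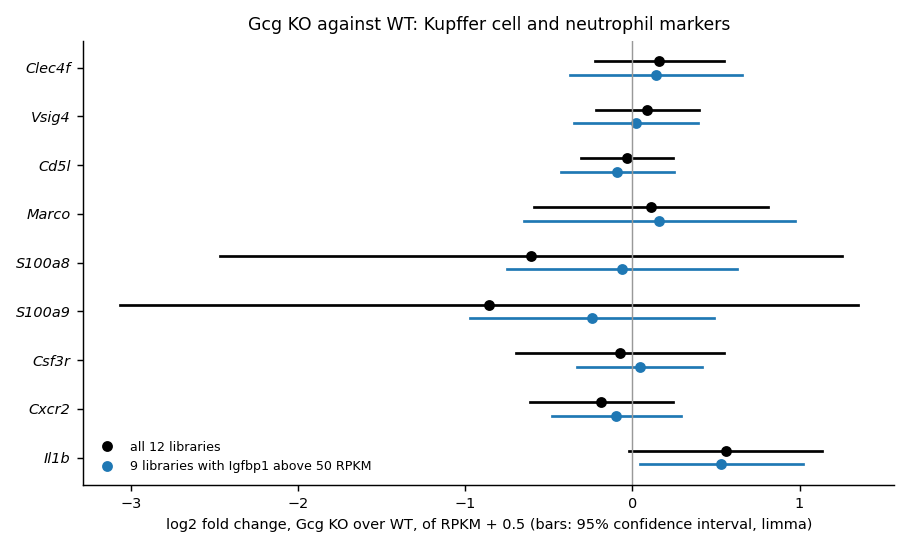
Log2 fold change of each marker, Gcg KO over WT, on log2(RPKM + 0.5), with its 95% confidence interval from limma, in all 12 libraries (black) and in the 9 libraries with Igfbp1 above 50 RPKM (blue). All black intervals include 0, the intervals of S100a8 and S100a9 shrink most without the 3 libraries, and the blue interval of Il1b runs from 0.04 to 1.02.

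Of the 9 markers, 4 were lower in WT 6, Gcg KO 10 and Gcg KO 12 than in each of the other 9 libraries. Over all 11347 tested genes 193 (1.7%) had all 3 libraries below the other 9 and 647 (5.7%) had all 3 above. The 4 were S100a8, S100a9, Csf3r and Cxcr2, all neutrophil markers; Il1b overlapped, and so did all 4 Kupffer markers. These markers were chosen with this pattern known, so the values are a description.

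S100a8 lay at 0.651 RPKM in WT 6, 1.12 in Gcg KO 10 and 0.496 in Gcg KO 12, against 7.14 to 24.9 in the other 9. The 3 values rest on 3, 6 and 2 whole reads, with exact 95% Poisson intervals of 0.134 to 1.90, 0.411 to 2.44 and 0.0601 to 1.79 RPKM. The next lowest library, Gcg KO 9, had 38 reads (interval 5.05 to 9.80 RPKM), so the gap is larger than counting error, which is all these intervals cover. S100a9 lay at 0.489, 0.140 and 1.31 RPKM in the same 3 libraries, which is about 3, 1 and 7 reads, against 7.91 to 34.3 in the other 9. Gcg KO 9 was again the lowest of the 9.

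The S100a9 to S100a8 ratio of RPKM was between 1.11 and 1.83 in the 9 libraries, so the proportion of the pair varied little where both were well measured. In the 3 libraries it was 0.751, 0.125 and 2.63, values that rest on 1 to 7 reads for each gene. Csf3r lay at 0.251, 0.385 and 0.4999 RPKM in WT 6, Gcg KO 10 and Gcg KO 12 and between 0.910 and 1.77 in the others. For Cxcr2 the values were 0.522, 0.523 and 0.471 RPKM against 0.677 to 1.53. The gap was small for Cxcr2, where the lowest of the 9 was 1.29 times the highest of the 3, and wide for S100a8 and S100a9, where it was 6.38 and 6.06 times. The Poisson intervals of Cxcr2 in the 3 libraries reach 0.819, 0.794 and 0.782 RPKM, above the 0.677 of Gcg KO 9, so its separation is within counting error. For Csf3r the intervals of WT 6 and Gcg KO 10 (up to 0.456 and 0.605 RPKM) lie below those of the other 9, of which WT 2 has the lowest bound (0.670), but that of Gcg KO 12 reaches 0.792 and overlaps it.

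Il1b was lowest of all in WT 6, at 0.834 RPKM. Gcg KO 10, at 2.48 RPKM, was the lowest of the Gcg KO libraries, and Gcg KO 12, at 2.86, lay below Gcg KO 7, 8 and 11 (4.39 to 5.34) and close to Gcg KO 9 (2.72). Both nevertheless lay inside the 1.71 to 5.34 RPKM of the other 9, which include the lower WT values. Among the Kupffer markers Clec4f had 27.0, 32.2 and 33.6 RPKM in the 3 libraries (19.7 to 45.3 in the others), and Cd5l had 28.2, 26.4 and 31.3 (19.1 to 30.3). Vsig4 had 14.5, 15.4 and 16.3 RPKM (8.37 to 15.7), and Marco 0.772, 0.663 and 1.72 (0.643 to 3.16). The 3 libraries thus fell inside or above the range of the others for each Kupffer marker.

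**Figure D3:**
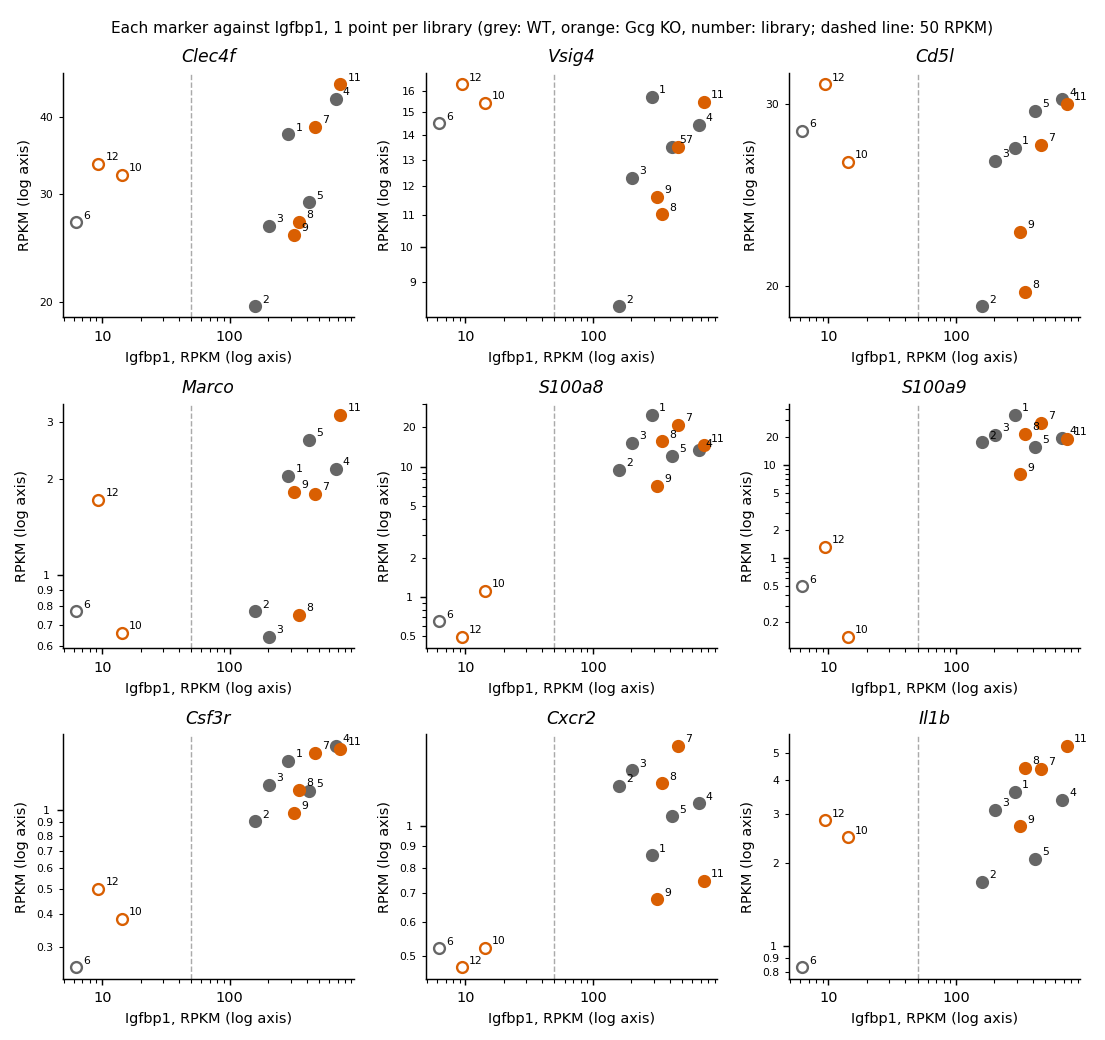
RPKM of each marker against Igfbp1, both on log axes, 1 point per library with its number (grey WT, orange Gcg KO, open below 50 RPKM of Igfbp1, which the dashed line marks). Libraries 6, 10 and 12 lie at the bottom left for S100a8, S100a9, Csf3r and Cxcr2. For Clec4f, Vsig4 and Cd5l they lie inside or above the range of the others, and for Marco libraries 6 and 10 lie near the bottom.

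Among the 9 libraries with Igfbp1 above 50 RPKM, the markers related to Igfbp1 to different degrees, most closely Clec4f and least closely S100a9. Each of the 9 markers was related to Igfbp1 on log2(RPKM + 0.5), with exact two-sided permutation tests over all pairings and p-values adjusted over the 9. For Clec4f, Pearson's r was 0.86 (permutation p = 0.00340, adjusted p = 0.0306) and Spearman's rho 0.87 (permutation p = 0.00451, adjusted p = 0.0406). It was the only marker whose Pearson test passed after adjustment. Marco (r = 0.77, rho = 0.68), Csf3r (r = 0.76, rho = 0.72), Vsig4 (r = 0.72, rho = 0.53), Cd5l (r = 0.68, rho = 0.82) and Il1b (r = 0.62, rho = 0.60) had adjusted permutation p-values for r of 0.0590, 0.0590, 0.0629, 0.0882 and 0.113. For Cd5l the rank test passed (adjusted permutation p = 0.0485). S100a8 (r = 0.19, rho = 0.10), S100a9 (r = 0.05, rho = 0.00) and Cxcr2 (r = -0.25, rho = -0.17) had adjusted permutation p-values of 0.696, 0.905 and 0.650 for r.

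The relation of Clec4f to Igfbp1 passed with all 9 libraries but not with fewer of them over a narrower range. Without WT 2 and Gcg KO 11, the libraries farthest from the median of Igfbp1 (159 and 738 RPKM), r was 0.66 over 7 libraries (exact permutation p = 0.103), and it was 0.61 for Marco, 0.54 for Csf3r, 0.38 for Cd5l, 0.31 for Vsig4 and 0.08 for Il1b, which fell the most of these from its 0.62. WT 2 also had the most reads (15000000) and Gcg KO 11 the fewest of the 9 (11000000), and the part of depth in these relations was not tested. Within a genotype there were 5 and 4 libraries, too few for a correlation. Over all 12 libraries no correlation is given, since Igfbp1 splits them into separate clusters.

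Several other neutrophil genes had the same 3 libraries at the bottom. From a list of 34 granule and surface genes, 33 were above 0 in at least 1 library. Of these 33, 11 (33.3%) had the 3 libraries below the other 9, against 1.23% of the 18062 genes above 0. Of the 11, 7 lay under the filter on low values, where few reads decide the order. Il1r2, which passed the filter, was split by 0.0544 RPKM in Gcg KO 10 against 0.0548 in Gcg KO 9. Counting error was not gauged for these genes. Retnlg, a resistin-like protein of mature neutrophils, was at 0.280, 0 and 0.160 RPKM in the 3 libraries and at 1.58 to 5.34 in the other 9. Mmp9, the granule gelatinase, was at 0.295, 0.253 and 0.399 against 0.461 to 1.58, and Hdc, which makes histamine, at 0.710, 0.427 and 0.771 against 0.999 to 2.44. Clec4e, a lectin receptor of myeloid cells, was listed at 0 in all 3 and at 0.0292 RPKM or more in the rest. Mmp9, Hdc, Clec4e and Il1r2 were picked after their values were seen.

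Several other granule genes were low throughout. Ctsg was listed at 0 in all 12 libraries, Mpo in 11, and Ltf and Camp did not exceed 0.0627 and 0.152 RPKM. Mpo, Ltf and Camp were at 0 in all 3 libraries low in Igfbp1, but also in some of the other 9. At such levels these genes cannot show whether the pattern holds for them. Elane and Prtn3, proteases of the primary granules, reached 0.317 and 0.502 RPKM, a range like that of Clec4e, and both were highest in Gcg KO 12, which is 1 of the 3 libraries low in Igfbp1. In the other 2, WT 6 and Gcg KO 10, Elane was at 0 and 0.159 RPKM and Prtn3 at 0 and 0.226. The most abundant members of the list did not share the pattern: Wfdc21 (346 to 510 RPKM in the 3, 313 to 634 in the others) and Lcn2 (1.46 to 3.39 against 2.68 to 30.2), both of which hepatocytes can make, overlapped. G0s2, a lipase inhibitor also made by hepatocytes, was higher in the 3 (32.1 to 37.1 RPKM) than in the others (5.60 to 13.6). The summed level of the whole list overlapped, with 400 to 559 RPKM in the 3 libraries and 349 to 703 in the 9. Cebpe overlapped too (2.91 to 5.29 RPKM in the 3, 4.03 to 5.56 in the others). A second sum left out Wfdc21, Lcn2, G0s2 and Cebpe, a choice made after the values were seen. For the other 30 genes it was 9.60 to 9.94 RPKM in the 3 libraries and 12.2 to 24.8 in the 9. By genotype this second sum was 9.60 to 24.8 RPKM in WT and 9.78 to 23.2 in Gcg KO. The genes left out overlapped or went the other way, so the gap in this sum does not test the pattern. Of the 13 tested genes of the list 0 were called by genotype in either direction (median log2 fold change -0.09, against 0.01 over all tested genes). An unadjusted limma p under 0.05 was found for 0 of the 13, against 1783 of all 11347 tested genes. Without WT 6, Gcg KO 10 and Gcg KO 12, 1 of 12 was called lower, G0s2, with 11.7 ± 1.88 RPKM in WT (SD, n = 5) and 7.19 ± 1.51 in Gcg KO (n = 4). Its log2 fold change was then -0.67 ± 0.15 (SE, limma adjusted p = 0.0446), against -0.19 in all 12 libraries (limma adjusted p = 0.910).

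Other Kupffer cell and macrophage genes were likewise not called by genotype. Of 24 listed genes 23 were tested and 0 were called higher or lower in Gcg KO (median log2 fold change 0.09). An unadjusted limma p under 0.05 was found for 1 of the 23, against 1783 of all 11347 tested genes. Without the 3 libraries 0 of 23 were called and 1 had an unadjusted p under 0.05 (limma, median 0.01). The number of unadjusted p-values over all genes was not counted in that fit. Nr1h3 encodes the nuclear receptor LXR alpha of hepatocytes and Kupffer cells. It averaged 38.5 ± 3.14 RPKM (SD, n = 6) over WT and 37.2 ± 2.87 over Gcg KO libraries. Slc40a1, the iron exporter ferroportin, had 26.9 ± 5.98 and 36.4 ± 10.96 RPKM, and Lyz2, lysozyme, 26.5 ± 5.52 and 27.1 ± 7.09. The summed level of the list was 260 to 361 RPKM in WT and 266 to 384 in Gcg KO. In the 3 libraries low in Igfbp1 it was 325 to 384 RPKM, and in the other 9 it was 260 to 361. Id3, a helix-loop-helix inhibitor named after its values were seen, was higher in those 3 (51.3 to 61.6 RPKM) than in the other 9 (10.1 to 22.3 RPKM). It is part of the summed level, and a sum without it was not taken.

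**Figure D4:**
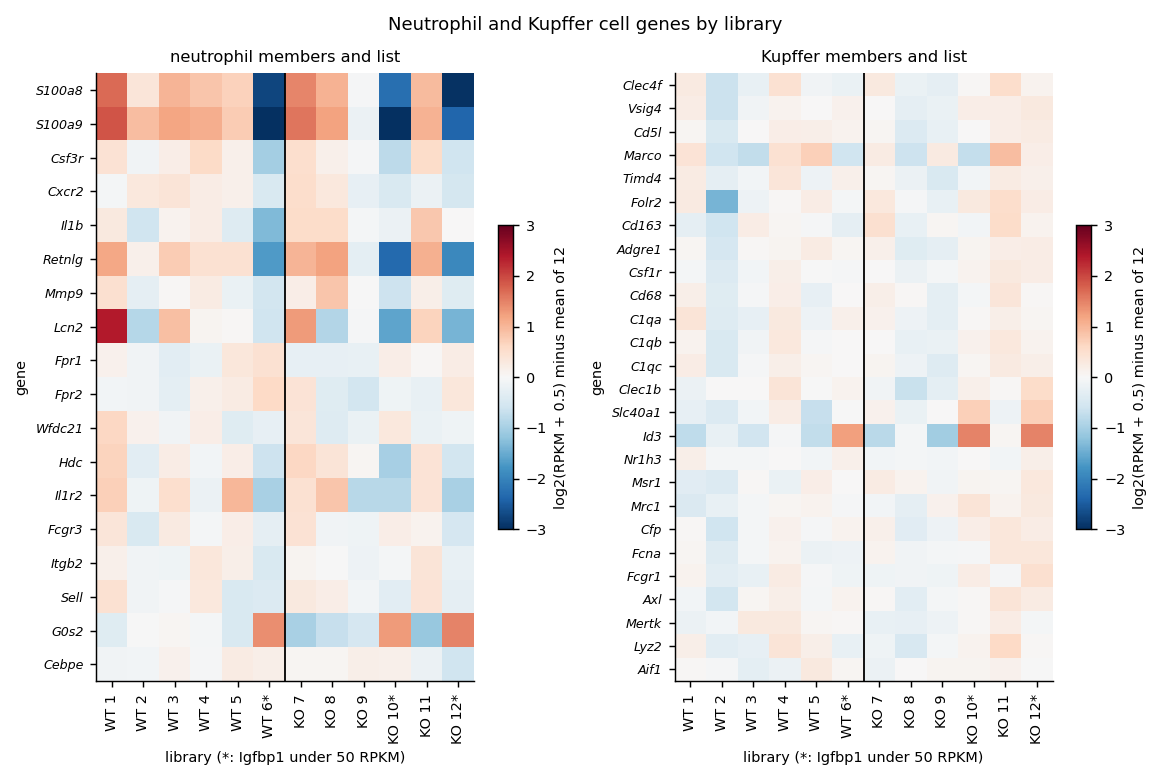
Log2(RPKM + 0.5) of the tested neutrophil genes (left) and of the Kupffer cell genes shown (right), each minus its mean over 12 libraries, with WT left and Gcg KO right of the black line and asterisks on the 3 libraries with Igfbp1 under 50 RPKM. S100a8, S100a9 and Retnlg are dark blue in the 3 marked libraries, while most Kupffer genes are pale there and WT 2 is pale blue for many of them.

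The genes most like each marker set were ranked by Pearson's r over 12 libraries among 10832 tested genes with names. The r was taken with the mean standardised log2 value of the set, so these genes follow its pattern by selection. For the neutrophil markers they were Cdkn1a (r = 0.96), a cell cycle inhibitor, Retnlg (0.95), Cebpb (0.95), a transcription factor of hepatocytes and myeloid cells, Itprip (0.95) and Ptp4a1 (0.94), a phosphatase. Those values rest largely on the 3 libraries: within the other 9 they were 0.58, 0.87, 0.64, 0.59 and 0.54, highest for Retnlg. For the Kupffer markers they were C1qb (0.92) and C1qc (0.91), chains of complement C1q, Sdc3 (0.92), a syndecan, Adgre5 (0.91), an adhesion receptor of leukocytes, and Csf1r (0.89), the growth factor receptor of macrophages. Within the 9 libraries these were 0.95 for C1qb, 0.91 for C1qc, 0.94 for Sdc3, 0.92 for Adgre5 and 0.92 for Csf1r. The likeness is a description over libraries that share 1 tissue, and no test was made.

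Ligands, adhesion molecules and signalling genes around the markers held 0 genes called by limma for genotype, with or without the 3 libraries. Unadjusted p-values under 0.05 numbered 3 with all 12 libraries, all in the G-CSF list, and 2 without the 3, both in the interleukin 1 list. With all 12 libraries 1783 of all 11347 tested genes had an unadjusted limma p under 0.05. For the fit without the 3 this number was not counted. The chemokine and cytokine list had 4 of 13 genes tested. Cxcl1, a ligand of Cxcr2, averaged 6.30 ± 4.59 RPKM (SD, n = 6) over WT and 9.11 ± 9.62 over Gcg KO libraries. Cxcl12, which holds neutrophils in the marrow through Cxcr4, had 84.0 ± 6.24 and 88.3 ± 13.2. Csf3, the ligand of Csf3r, and Il17a were listed at 0 in every library. Among 10 adhesion genes 7 were tested, and Icam1, an integrin ligand of endothelium, had 3.24 ± 2.40 and 3.79 ± 2.48 RPKM. All 3 libraries low in Igfbp1 were below the other 9 for 0 of 11 chemokine genes above 0 and 0 of 10 adhesion genes. In lists this short a count of 0 lies near the 1.23% of all genes above 0.

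In the interleukin 1 pathway 16 of 22 genes were tested, and 4 of the 22 (18.2%) had the 3 libraries below the others, against 1.23% of all genes above 0. Nfkbia, the inhibitor of NF-kappaB that NF-kappaB itself induces, was at 17.6 to 27.9 RPKM in the 3 and 30.9 to 44.7 in the 9. Il1r1, the interleukin 1 receptor (4.45 to 6.02 against 8.37 to 30.1 RPKM), Tnfaip3 (0.247 to 0.446 against 0.701 to 4.57) and Rela (14.3 to 15.4 against 15.9 to 19.3) were the others. Of 12 G-CSF receptor signalling genes 1 (Jak2) had the 3 above and 3 (25%) had them below: Cebpb (20.5 to 33.5 against 56.8 to 102 RPKM), Cebpd (0.866 to 2.10 against 3.64 to 5.51) and Stat3 (19.6 to 20.3 against 23.1 to 33.0). Hepatocytes express these genes too. Among 7 receptors of S100a8 and S100a9 it was 3 (42.9%), of which Cd33 and Emb lay under the filter on low values. The other was Cd14, the lipopolysaccharide co-receptor, at 0.717 to 0.937 against 1.082 to 5.14 RPKM.

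Markers of other blood and liver cells were measured beside the neutrophil genes. Summed levels in the 3 libraries low in Igfbp1 and in the other 9 were 231 to 262 and 226 to 346 RPKM for 14 monocyte genes, of which Fn1, also made by hepatocytes, gave the most. They were 2.65 to 3.95 and 2.33 to 4.26 RPKM for 13 T and NK cell genes, 2.09 to 3.22 and 1.42 to 3.53 for 8 B cell genes, and 240 to 351 and 236 to 442 for 12 red cell and platelet genes. The 3 libraries lay below all others for 0 genes of each of these 4 lists. They did so for 0 of 12 endothelial and 0 of 11 stellate cell genes, against 1.23% of all genes above 0. With lists this short, counts of 0 lie near that background. Hba-a1 and Hba-a2 are near-identical copies, so their split is uncertain. The sums overlapped for each of these lists, and the part of blood content in the neutrophil values was not tested further. Among 15 acute phase genes, which hepatocytes raise in inflammation, 1 had the 3 libraries below the others, Saa1, named after its values were seen (22.9 to 32.4 against 35.2 to 517.9 RPKM).

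By genotype, 4 of the 138 tested list genes other than the markers (2.90%) passed limma's threshold, near the 3.87% of all tested genes. Without the 3 libraries it was 3 of 137 (2.19%, against 2.65% of all tested genes): Lyve1, Rgs5 and G0s2. Lyve1, a hyaluronan receptor of liver sinusoidal endothelium, rose from 3.01 ± 0.895 to 6.06 ± 1.81 RPKM (SD, n = 6; limma adjusted p = 0.0125, 0.00547 to 0.0478 over the alternatives). Rgs5, a regulator of G protein signalling in pericytes and stellate cells, rose from 6.44 ± 0.365 to 8.42 ± 0.514 RPKM (limma adjusted p = 0.00355, 0.00252 to 0.0263 over the alternatives). Hbb-bs, an adult beta globin with close copies, fell from 6.90 ± 1.48 to 4.61 ± 0.246 RPKM (limma adjusted p = 0.0438, 0.000364 to 0.207 over the alternatives), and Orm2, an acute phase glycoprotein of a multigene family, from 16.0 ± 8.02 to 6.58 ± 2.68 (limma adjusted p = 0.0382, 0.0218 to 0.0878 over the alternatives). Without the 3 libraries Lyve1 and Rgs5 passed (adjusted p = 0.0478 and 0.0263), and Hbb-bs and Orm2 did not (adjusted p = 0.207 and 0.0851). Those 2 also lost their calls in most fits that left out 1 library.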

How the data were processed

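Polyadenylated liver RNA was sequenced in 12 strand-specific libraries, per the labels' protocols. The authors deposited 1 table of RPKM values with a column per library; the unit was taken from the table's name and from its values, which are not whole. CASAVA 1.8.2, FastQC and GRCm38 are named in the submitters' processing notes; no aligner, counter or annotation is named there or in the labels (not given in the sources used here). Entrez identifiers matched a RefSeq table of GRCm38 for 99.6% of the 24475 genes and gave the coordinates. 0 columns were left unmatched to a sample.

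Depth was estimated from the common lowest step of RPKM multiplied by transcript length in genes with a single GENCODE transcript (10300000 to 15000000 reads). Reads of a marker are called whole where 1 length brought all 12 values within 0.1 of a whole number (S100a8, Il1b, Marco, Vsig4); otherwise they are estimates from the longest transcript.

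Gcg KO was compared with WT by limma 3.58.1 (R 4.3.3) on log2(RPKM + 0.5), a scale that understates changes of low genes, over the 11347 genes with a mean of at least 0.5 RPKM, with a mean-variance trend, no covariate, two-sided, and Benjamini-Hochberg adjustment over all of them. Replicate numbers run from 1 to 12 and pair no samples. On simulated data (11271 genes tested) limma recovered 40 of 50 raised 1.5-fold, 43 of 50 raised 2-fold and 50 of 50 raised 3-fold. There were 8 false calls among 185. The simulated noise was independent between genes and libraries, whereas here 3 libraries stood apart together in many genes. These rates may therefore not hold for the real data. Alternatives were other pseudocounts, filters, scalings, limma settings, and libraries left out.

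Named were the markers, Igfbp1, Gcg, and by a written rule the 3 most abundant and all called genes of each list and the 5 genes most like each marker set; some of these are left out for brevity, and genes given because the 3 libraries stood apart were chosen after their values were seen. 1 list gene that stood out between libraries is not reported here. The markers, lists and rules were chosen with earlier results of these data known.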

Additional observations from a re-analysis of the deposited data

Results flagged for a closer look

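In 30 sets of 6 libraries checked (15 genes in each genotype), 4 had 1 library far from the other 5 by Dixon's criterion, which chance meets in about 1 set in 20. Cd5l was at 19.1 RPKM in WT 2, against 26.4 to 30.3 in the other WT libraries. Lyve1 was at 9.68 RPKM in Gcg KO 10, against 4.78 to 5.82 in the other Gcg KO libraries. Hbb-bs was at 4.15 RPKM in WT 5 (6.91 to 8.48 in the others) and Orm2 at 31.2 RPKM in WT 1 (8.86 to 16.9 in the others).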

How the results depend on the processing

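The count of called markers stayed at 0 under every alternative run. Leaving out 1 library at a time moved the count of called genes between 277 (without WT 3) and 471, against 439, and the count of called list genes between 2 and 4, against 4; with no filter on low values that count was 2, where more genes were tested. Marker log2 fold changes that changed sign, none of them called, did so when 1 library was left out: Vsig4 (range -0.030 to 0.15), Cd5l (-0.13 to 0.044), Marco (-0.062 to 0.27) and Csf3r (-0.29 to 0.075). Csf3r was also 0.043 without the 3 libraries. S100a8 ranged from -1.22 to -0.07 and S100a9 from -1.60 to -0.17 in those fits. On the RPKM scale 3 markers, Clec4f, Marco and Csf3r (adjusted permutation p = 0.04998 for each of the last 2), passed the test against Igfbp1 in place of 1, and r of S100a9 was -0.019. Without the 2 libraries farthest from the median of Igfbp1, r was -0.056 for S100a8, -0.00094 for S100a9 and 0.13 for Cxcr2. The causes were not tested. No paired analysis was possible because the groups share no replicate number. Csf3r, Cxcr2 and Marco could not be fitted at a mean of at least 2 RPKM, as they lie under it. At 1 to 7 reads, S100a8 and S100a9 cannot be ordered among the 3 low libraries.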
